A study of Homo sapiens with 6 samples.

Results

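The genes described here encode the subunits of the proteasome, its activators and inhibitor, and the chaperones that assemble it. They were taken by name from the table of counts: 48 rows carried a symbol made of PSM, a letter from A to G and a number. PSMB8 and PSMB9 were set aside by name, and PSMA8 (2 counts over all libraries) and PSMB11 (0 counts) fell under the summed count of 15 asked of a member. This left 44 members of 46287 rows, and all 44 passed the filter on low counts, so no member was lost to it.

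RNA was measured in 6 libraries of HaCaT, an established human keratinocyte line that became immortal in culture without an added oncogene. Of these, 3 came from wild-type control cells and 3 from cells whose label gives the SDR42E1 knockout as homozygous; the editing used CRISPR/Cas9. The protocol describes 1 culture medium for all cells and names no agent given to either group, and the groups were collected together. Replicates are labelled as biological, but neither the number of knockout clones nor the separation of cultures is stated, and the protocol speaks of RNA pools. The p-values therefore measure the spread between libraries, which may be partly technical.

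Library totals ran from 11504473 to 16928201 counts. SDR42E1 itself stood at 46.8, 47.6 and 48.8 CPM (counts scaled to library size) in the control libraries and at 23.2, 20.1 and 20.7 CPM in the knockout libraries, lower in each of the latter and still present (log2 fold change -1.16 with an SE of 0.08, edgeR adjusted p = 2.69e-14). The gene lies on the long arm of chromosome 16, where 67.6% of 256 tested genes were lower in the knockout (median log2 fold change -0.44). What part of its fall goes with that arm was not tested. Of 12 keratinocyte markers, 12 were tested, and their summed level was 9600 to 10200 CPM in control and 10200 to 10600 CPM in knockout libraries. Within that sum 7 markers rose, 2 fell and 3 did not pass, with log2 fold changes from -0.66 (KRT5) to 0.76 (ITGB4). Lists of fibroblast (6 genes), melanocyte (5), endothelial (4) and immune (5) markers each summed to at most 9.68 CPM in any library, with DCN, PDGFRA, TYR and CD3E among those at 0. COL1A1, PMEL, CDH5, VWF and CD68 were tested, and of these only VWF passed (1.68 to 0.851 CPM, log2 -0.98, adjusted p = 0.0315 in edgeR). CD68 made up most of the immune level, with means of 6.27 CPM in control and 8.18 CPM in knockout libraries. Immune markers ran from 5.4 to 8.45 CPM in control and from 8.13 to 9.68 CPM in knockout libraries, and the summed levels of the 3 lists other than keratinocyte and immune were lower in the knockout libraries; their part in the results was not tested. In bulk RNA, fewer cells that express a gene and less RNA per cell cannot be told apart.

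The proteasome degrades proteins tagged with ubiquitin. Its core particle is a barrel in which rings of alpha subunits (PSMA genes) close the ends and rings of beta subunits (PSMB genes) hold the proteolytic sites. A regulatory particle caps the barrel. Its base contains a ring of ATPases (PSMC genes) that unfold substrates, and its lid, made of further PSMD subunits, removes the ubiquitin chains. Dedicated chaperones assemble the parts without staying in the mature complex. Because each subunit is needed in a fixed proportion, cells usually make the subunit RNAs together, in large part through the transcription factor NFE2L1, which binds antioxidant response elements in their promoters.

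Promoters bear on this shared control, so a few are shown. The RefSeq table of gene starts (build GRCh38.p14) held 46 promoters for 38 of the 44 members, each running from 250 bases before the start to 50 after it. The core of the antioxidant response element was searched as TGACNNNGC on both strands; a match can overlap an AP-1 site. It was found in 14 of the 46 member promoters (30.4%), against 13.3% of 35116 promoters of the same length and 14.4% of those of tested genes. The stretches below were chosen to set the members with the largest falls beside members that did not fall and hold the same letters. They read 5′ to 3′ on the strand of the gene, with the match in capitals, and end before the RefSeq start.
PSMB3 (chr17:38752609-38752673, plus strand, match 104 bases before the start): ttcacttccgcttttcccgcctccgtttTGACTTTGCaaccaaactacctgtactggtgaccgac
PSMD3 (chr17:39980742-39980806, plus strand, 37 bases before): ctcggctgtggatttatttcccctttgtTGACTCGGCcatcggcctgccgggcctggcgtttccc
PSMA4 (chr15:78540632-78540696, plus strand, 126 bases before): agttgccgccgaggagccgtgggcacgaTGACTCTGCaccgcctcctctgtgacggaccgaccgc
PSMG1 (chr21:39183598-39183662, minus strand, 183 bases before): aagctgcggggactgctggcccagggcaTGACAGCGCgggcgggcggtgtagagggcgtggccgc
The median log2 fold change was 0.03 among members with a match and 0.05 among those without. Away from the chromosome regions described next, the medians were 0.05 (10 members) and 0.06 (19 members). The CCAAT box, the site of the factor NF-Y, was searched as CCAAT on both strands and stood in 18 of the 46 member promoters (39.1%) against 34.6% of all promoters. A match here is a description of letters and not of binding.

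As a set the proteasome genes barely moved, but single subunits did. Of the 44 members, 24 passed the threshold (adjusted p under 0.05, edgeR's quasi-likelihood test over all 12293 tested genes), a share of 54.5% against 50.4% of all tested genes. Of these, 16 rose (36.4%, against 24.6% of all tested genes) and 8 fell (18.2%, against 25.8%). Without control replicate 2 only 8 rose (18.2%, below the 21.0% of all genes tested in that fit), while 8 still fell (22.1% of all genes), so a share of rises above that of all genes was not seen without that library. The median log2 fold change was 0.04, beside -0.00 over all tested genes, and the groups did not overlap in 25 members (56.8%, against 56.5%): 16 higher, against 27.5% of all tested genes, and 9 lower, against 29%. An absolute log2 fold change of at least 0.5 with the call was reached by 3 members that fell (12.2% of all tested genes) and by 0 that rose (6.56%). The rises were small, none larger than 0.42 on the log2 scale, whereas the falls reached -1.04.

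**Figure D1:**
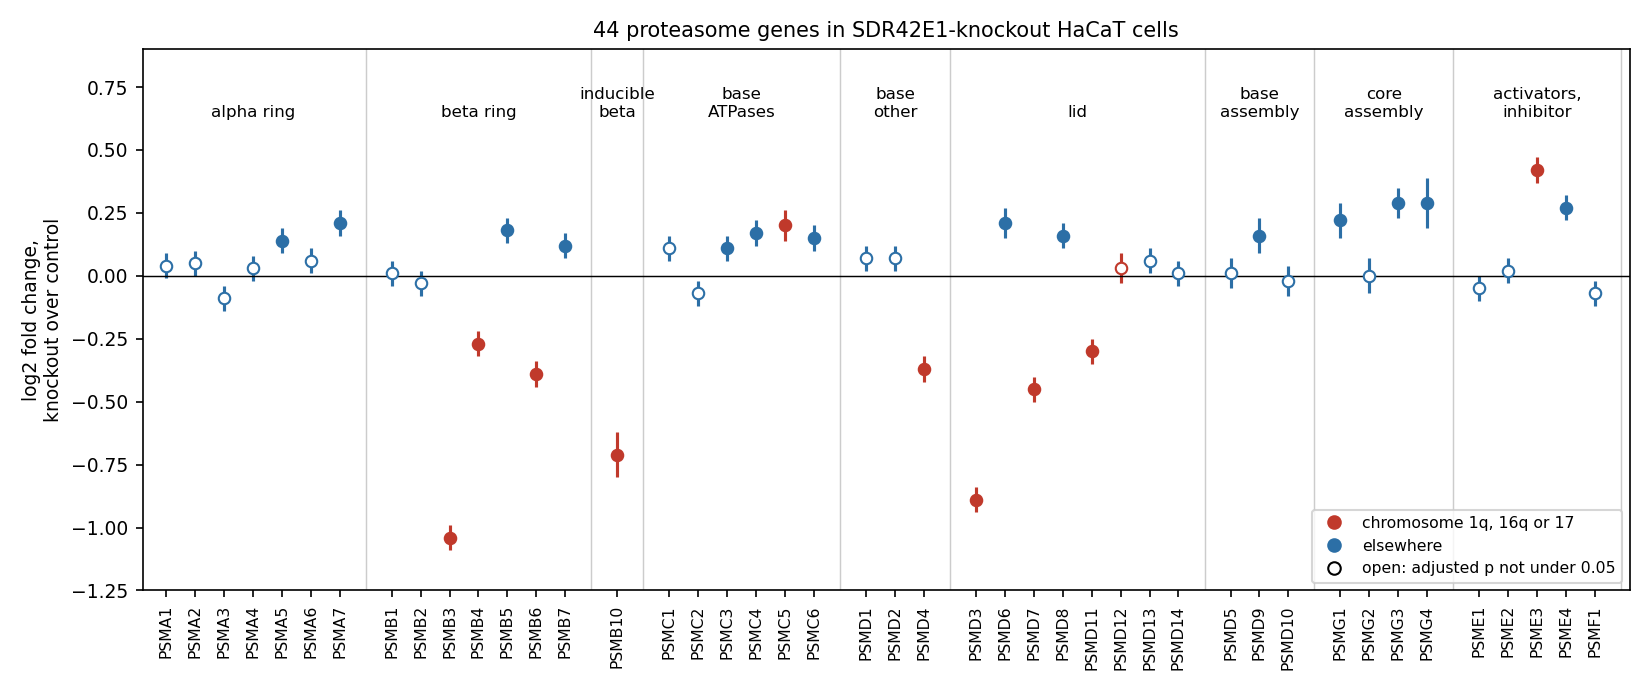
Log2 fold change of knockout over control (y axis) for each of the 44 members (x axis), grouped by place in the complex, with bars of 1 SE from edgeR. Filled points passed the adjusted threshold and open points did not; red marks genes on the long arms of chromosomes 1 and 16 or on chromosome 17, and the 8 members that fell, from PSMB4 at -0.27 to PSMB3 at -1.04, are all red.

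The 8 members that fell were PSMB3, PSMB4, PSMB6, PSMB10, PSMD3, PSMD4, PSMD7 and PSMD11. They belong to the beta rings, the base and the lid, so they share no single subcomplex. They do share a location: PSMB4 and PSMD4 lie on the long arm of chromosome 1, PSMB10 and PSMD7 on the long arm of chromosome 16, and PSMB3, PSMB6, PSMD3 and PSMD11 on chromosome 17. An earlier analysis of these same data had found stretches of lower expression there, among others, so the regions were chosen with the fold changes known, and the counts below describe that choice. They were taken as whole arms and a whole chromosome, wider than those stretches, and a short stretch of chromosome 19 was not taken; PSMC4 and PSMD8, on chromosome 19, are counted as elsewhere. Of 11 members in these regions 8 fell, 2 rose and 1 did not pass (median -0.37), and of all 1558 tested genes there 54.8% fell and 10.8% rose (median -0.28). Of 33 members elsewhere 0 fell and 14 rose (median 0.07), against 21.7% and 26.6% of 10680 tested genes (median 0.02). Among 6181 other genes elsewhere in the members' range of mean log2 CPM (4.53 to 9.02), 19.1% fell and 34.7% rose (median 0.06). With upper-quartile scaling 1 of the 33 members, PSMA3, fell (log2 -0.12, adjusted p = 0.0490 in edgeR). PSMB8 and PSMB9, set aside by name, lie on chromosome 6 and both fell (log2 -0.34 and -0.46), so the 0 falls elsewhere hold for the members only.

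PSMB3, a non-catalytic subunit of the beta ring, showed the largest change. It lies on chromosome 17 from 38752736 to 38764231 on the plus strand (GENCODE 29, GRCh38). Its levels were 510, 476 and 478 CPM in the control libraries and 248, 241 and 225 CPM in the knockout libraries. Every knockout library lay below every control library, with a gap far wider than the spread in either group. By edgeR the change was -1.04 on the log2 scale (SE 0.05, adjusted p = 1.03e-19), which left 48.7% of the control level. Of the 20 nearest tested genes, 10 on each side, 19 were below 0, with a median log2 fold change of -0.76.

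PSMD3, a lid subunit, lies further along the same arm of chromosome 17, from 39980797 to 39997960 on the plus strand. It was read at 397, 398 and 379 CPM in control and at 211, 221 and 202 CPM in knockout libraries. The groups stood apart again, and the knockout level was 53.9% of control (log2 -0.89, SE 0.05, adjusted p = 6.28e-18 in edgeR). Its neighbours had a median of -0.95, and 19 of 20 were below 0. PSMD3 thus differed from its surroundings by 0.06 and PSMB3 by -0.28, where the SD among the neighbours was 0.75 and 0.40. The neighbour spans of PSMB3 (37514797 to 39696797) and PSMD3 (39252644 to 40363815) overlap, so these medians are not independent.

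Smaller falls were seen at 2 other places on chromosome 17. PSMB6, the constitutive subunit with caspase-like activity, lies on the short arm from 4796144 to 4798503. It went from 208, 206 and 211 CPM to 157, 164 and 156 CPM (log2 -0.39, SE 0.05, adjusted p = 1.49e-08 in edgeR), beside a neighbour median of -0.30. PSMD11, a lid subunit that helps hold the regulatory particle on the core, starts at 32444261. Its levels were 212, 216 and 210 CPM in control and 170, 175 and 173 CPM in knockout libraries (log2 -0.30, SE 0.05, adjusted p = 1.84e-06), beside a neighbour median of -0.37. In both genes each knockout library lay below each control library.

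The other 3 members of chromosome 17, further along its long arm, were not lower. PSME3, which encodes a nuclear activator of the core, starts at 42824385. It rose from 118, 104 and 113 CPM to 145, 150 and 152 CPM (log2 0.42, SE 0.05, adjusted p = 3.43e-08 in edgeR), the largest rise among the 44 members. Its neighbours were mixed, with 11 of 20 below 0 and a median of -0.16. PSME3 stood 0.58 above that median, the widest distance of any member, where the SD among the neighbours was 0.57. PSME3 shares 300 exon bases with BECN1 on the opposite strand, whose own log2 fold change was 0.24 (adjusted p = 0.00246). The libraries kept strand, but no source used here gives the strand setting of the counting, so reads of such partners may be shared. The base ATPase gene PSMC5 rose by 0.20 (SE 0.06, adjusted p = 0.00846; lost without control replicate 1) next to neighbours at 0.17, and it shares 874 exon bases with FTSJ3 on the opposite strand (log2 0.26). The lid gene PSMD12 did not pass, with 114, 113 and 116 CPM against 111, 109 and 131 CPM and overlapping groups (log2 0.03).

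On chromosome 16, whose long arm also holds SDR42E1, both members fell. PSMD7, the lid partner of the deubiquitinase PSMD14, lies from 74296775 to 74306288 on the plus strand. It went from 195, 187 and 188 CPM to 142, 140 and 133 CPM (log2 -0.45, SE 0.05, adjusted p = 8.75e-10 in edgeR), while its neighbours had a median of -0.33. Its partner PSMD14, on chromosome 2, stood at 295 ± 10.5 CPM in control and 297 ± 13.2 CPM in knockout libraries (SD, n = 3; log2 0.01). PSMB10, the inducible counterpart of the trypsin-like subunit PSMB7, lies from 67934502 to 67937087 on the minus strand. Its levels were 47.7, 39.8 and 42.5 CPM in control and 26.7, 26.5 and 26.0 CPM in knockout libraries (log2 -0.71, SE 0.09, adjusted p = 7.55e-09). PSMB10 shares 644 exon bases with AC040162.1, a locus on its strand that held 94 counts. The groups did not overlap, and PSMB10 stood 0.37 lower than its neighbours' median of -0.34, the furthest below of any member. The SD among its neighbours was 0.32.

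The members of chromosome 1 split by arm. PSMD4, a ubiquitin receptor of the regulatory particle, and PSMB4, a non-catalytic beta subunit, lie close together on the long arm, from 151254703 to 151267479 and from 151399534 to 151401944, and so share neighbours. PSMD4 had 269, 271 and 275 CPM in control and 218, 217 and 194 CPM in knockout libraries (log2 -0.37, SE 0.05, adjusted p = 7.22e-08 in edgeR). PSMB4 had 397, 361 and 380 CPM against 326, 320 and 298 CPM (log2 -0.27, SE 0.05, adjusted p = 1.97e-05). Neither pair of groups overlapped, and the neighbour medians were -0.35 and -0.21. On the short arm, the alpha subunit gene PSMA5 rose by 0.14 (adjusted p = 0.0128; lost without control replicate 2) and the beta subunit gene PSMB2, at -0.03, did not pass.

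**Figure D2:**
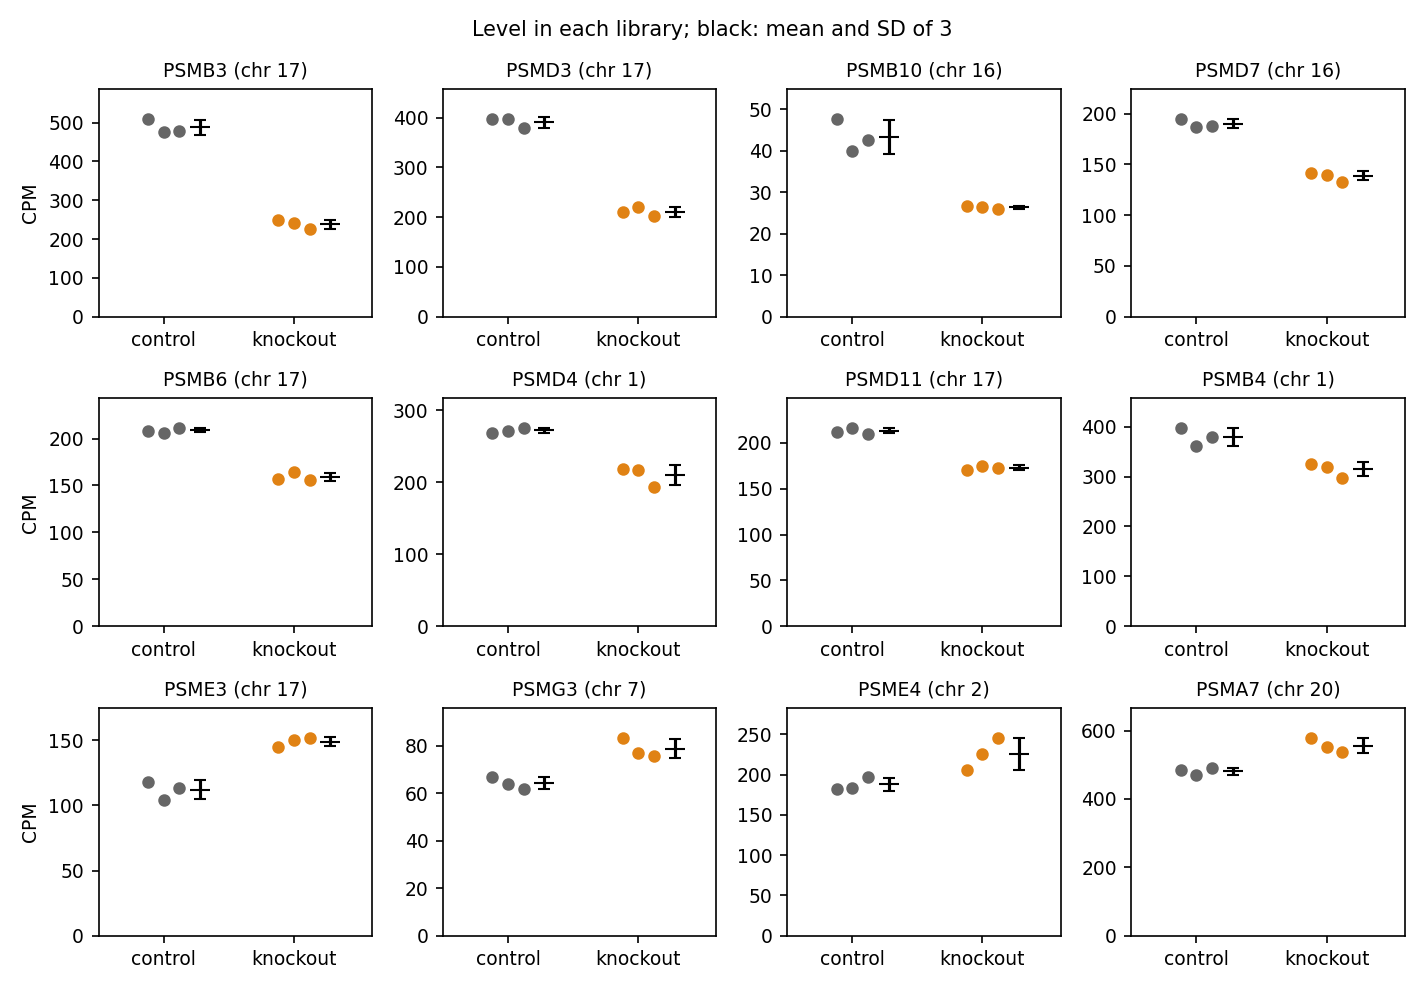
Level in CPM (y axis, from 0) in each library, by group (x axis), for the 8 members that fell and for PSME3, PSMG3, PSME4 and PSMA7, which rose; points are libraries and black marks give the mean and SD of 3. In each panel the control and knockout points do not overlap, with PSMB3 going from 488 ± 19.4 to 238 ± 11.6 CPM.

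Over all 44 members, 38 lay within 0.2 (log2) of the median of their nearest tested genes, and the median absolute distance was 0.12. For the 11 members on the long arms of chromosomes 1 and 16 and on chromosome 17 it was 0.09, and 9 of the 11 were closer to their neighbours' median than to 0. Elsewhere, where neighbour medians ran from -0.13 to 0.27, 15 of 33 were. Some members, such as PSMB3 and PSMD3 or PSMB4 and PSMD4, have overlapping neighbour spans, so these counts are not independent. Members were left out of the neighbour sets, but the regions were first seen in these libraries, so this is a description. DNA was not analysed here, and whether position plays a part in these values was not tested.

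**Figure D3:**
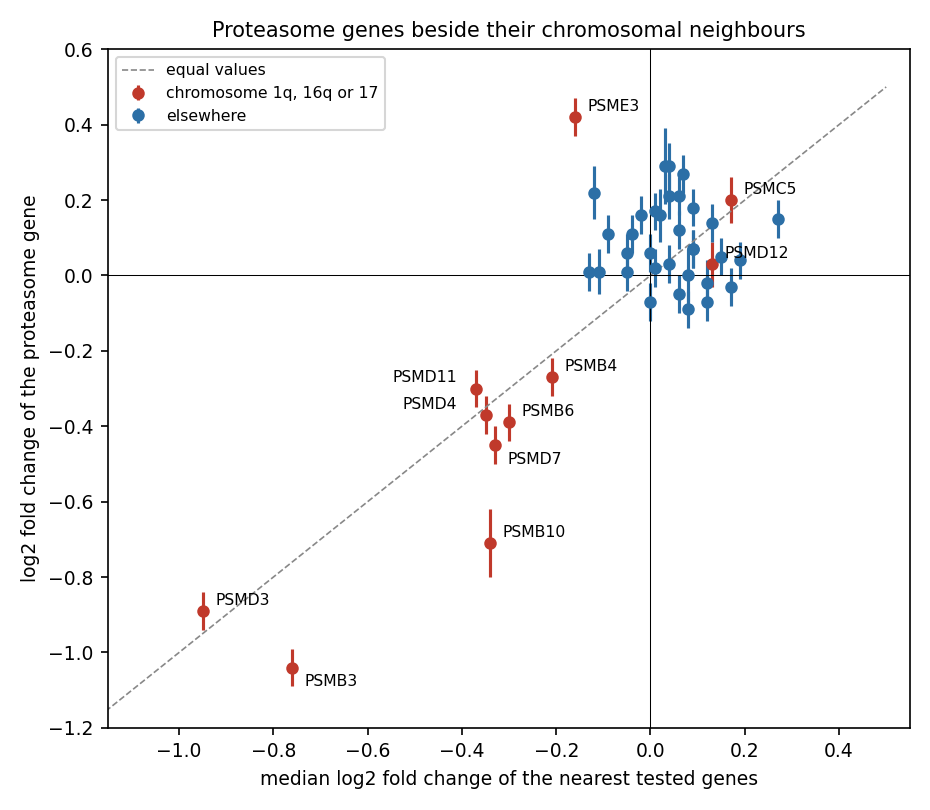
Log2 fold change of each proteasome gene with its SE (y axis) against the median log2 fold change of its nearest tested genes, up to 10 on each side (x axis); the dashed line marks equal values. The 8 members that fell sit at the lower left, 6 of them within 0.2 of the line and PSMB3 and PSMB10 further below it, while PSME3 stands above it at 0.42 against -0.16.

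The alpha rings changed little. Of the 7 PSMA members 0 fell, 2 rose and 5 did not pass (median 0.05, from -0.09 to 0.21). PSMA7 rose from 484, 469 and 489 CPM to 579, 553 and 537 CPM (log2 0.21, SE 0.05, adjusted p = 0.000223 in edgeR), with no overlap between the groups. PSMA1, PSMA2, PSMA4 and PSMA6 had values between 0.03 and 0.06 and overlapping groups. PSMA2 and PSMA6 share 781 and 919 exon bases with other annotated loci on their own strand (AC010132.3 and AL121594.1) that held 4242 and 4685 counts, so their levels are uncertain. In the beta rings 3 of 7 fell, 2 rose and 2 did not pass (median -0.03). The 3 falls are the genes in the named regions, and the 4 beta subunit genes elsewhere had 2 rises, 0 falls and a median of 0.07. Here and in the groups below, counts are to be read beside the 24.6% of all tested genes that rose and the 25.8% that fell. Of other genes in the members' range of mean log2 CPM, 34.7% rose and 19.1% fell outside the named regions. Inside the regions 12.1% of such genes rose and 59.0% fell.

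The catalytic beta subunits went different ways. Besides the fall of PSMB6, the chymotrypsin-like subunit gene PSMB5 rose from 170, 168 and 165 CPM to 189, 194 and 188 CPM (log2 0.18, SE 0.05, adjusted p = 0.00160 in edgeR). PSMB7, the trypsin-like subunit, rose by 0.12 (adjusted p = 0.0329), a call lost with upper-quartile scaling and without control replicate 2 or 3 or knockout replicate 1 or 2. Of the inducible counterparts that replace these subunits in the immunoproteasome, PSMB8 went from 88.3 ± 2.63 to 69.6 ± 5.72 CPM (log2 -0.34, adjusted p = 2.50e-05) and PSMB9 from 35.1 ± 1.67 to 25.5 ± 2.38 CPM (log2 -0.46, adjusted p = 3.71e-05; SD, n = 3). These lie on chromosome 6, where their gene spans overlap on opposite strands, so all 3 inducible subunits were lower while only PSMB10 lies in the regions above.

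Among the 9 genes of the base with a PSM name, 4 rose, 1 fell and 4 did not pass (median 0.11). The rises were the ATPase genes PSMC3, PSMC4, PSMC5 and PSMC6, at 0.11 to 0.20, and PSMD4 was the fall. The base gene ADRM1, which has no PSM name and rose by 0.35, is counted below with the further components. PSMC4 had 123, 118 and 124 CPM in control and 138, 142 and 130 CPM in knockout libraries (log2 0.17, SE 0.05, adjusted p = 0.00729 in edgeR; lost without control replicate 2). PSMC6 rose by 0.15 (adjusted p = 0.0125; lost without control replicate 2 or 3) and PSMC3 by 0.11 (adjusted p = 0.0471), of which the latter did not pass with upper-quartile scaling or when any library other than knockout replicate 3 was left out. The scaffold subunit genes PSMD1 and PSMD2, both at 0.07, did not pass, although their knockout libraries all lay above the control libraries. In the lid, 3 of 8 PSM-named genes fell, 2 rose and 3 did not pass. The lid median was 0.02, but -0.01 with upper-quartile scaling and without knockout replicate 3. The rises were PSMD6, from 94.4, 85.3 and 89.9 CPM to 107, 102 and 104 CPM (log2 0.21, SE 0.06, adjusted p = 0.00189), and PSMD8 (log2 0.16, adjusted p = 0.0135; overlapping groups, lost without control replicate 2, knockout replicate 1 or knockout replicate 2). All 4 lid genes outside the named regions had values at or above 0.01.

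Of the 7 assembly chaperone genes with a PSM name, 4 rose, 0 fell and 3 did not pass (median 0.16). All 7 lie outside the named regions, where 34.7% of other genes at the members' levels rose, and of the 4 calls only that of PSMG3 was kept in all 13 planned other fits. Of the 4 chaperones of the core, 3 were among the rises. PSMG3 went from 66.7, 64.1 and 61.9 CPM to 83.4, 77.0 and 75.8 CPM (log2 0.29, SE 0.06, adjusted p = 0.000179 in edgeR), with every knockout library above every control library. PSMG1 went from 58.1, 53.5 and 50.5 CPM to 63.9, 66.3 and 58.9 CPM (log2 0.22, SE 0.07, adjusted p = 0.00741; lost without control replicate 3). PSMG4 had the lowest CPM of the members in control libraries, 20.8 ± 3.35 (SD, n = 3), not adjusted for length. It rose by 0.29 (SE 0.10, adjusted p = 0.0211 in edgeR), but its groups overlapped. The call was lost with DESeq2 (adjusted p = 0.0788) and without control replicate 2, control replicate 3 or knockout replicate 2. PSMG4 shares 1388 exon bases with SLC22A23 and 174 with TUBB2B, both on the opposite strand. PSMG2, which pairs with PSMG1, stood at 53.0 ± 3.27 and 52.8 ± 3.67 CPM. Of the chaperones of the base, PSMD9 rose by 0.16 (adjusted p = 0.0470). That call was lost with DESeq2 (adjusted p = 0.0999), with upper-quartile scaling and without control replicate 1, control replicate 2, knockout replicate 1 or knockout replicate 3. On its own strand PSMD9 shares 436 exon bases with WDR66 (114 counts) and 1307 with AC069503.2 (0 counts). PSMD5 and PSMD10, at 0.01 and -0.02, did not pass. POMP and PAAF1, assembly factors without a PSM name, are counted below with the further components. Neither passed (log2 0.03 and 0.05), so the median above holds for the PSM-named genes only.

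The activators and the inhibitor were led by PSME3. PSME4, a large activator of the core, had 182, 184 and 197 CPM in control and 206, 226 and 246 CPM in knockout libraries (log2 0.27, SE 0.05, adjusted p = 0.000130 in edgeR), so the groups did not overlap although the knockout libraries were spread. PSME1 and PSME2, whose products form the interferon-inducible activator together, had values of -0.05 and 0.02 and overlapping groups. PSMF1, an inhibitor of the core in the test tube, did not pass at -0.07, with 114, 118 and 111 CPM in control against 110, 110 and 106 CPM in knockout libraries, which lay just below.

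The summed levels of the subcomplexes differed by uneven amounts. These sums hold PSM-named genes only, so ADRM1 and POMP, for example, are not in them. The 8 lid genes summed to 1571 ± 23.1 CPM in control and 1339 ± 27.9 CPM in knockout libraries, 85.2% of control. The core particle went from 3967 ± 93.5 to 3769 ± 111 CPM (95.0%), the base from 2228 ± 32.5 to 2281 ± 79.9 CPM (102%) and the assembly chaperones from 450.8 ± 8.56 to 484.3 ± 13.9 CPM (107%; SD, n = 3 each). The lid, core and assembly sums did not overlap between the groups; the base sums did. Single genes carried much of this. Without PSMB3 the other 13 core genes went from 3479 ± 75.6 to 3531 ± 99.3 CPM (102%), with overlapping groups, and without PSMD3 the other 7 lid genes went from 1180 ± 20.9 to 1128 ± 22.0 CPM (95.6%), which still did not overlap; both sums were added after seeing the data. Split by location, the 11 members of the named regions summed to 73.2% of control and the other 33 to 106%. All 44 together stood at 9047 ± 165 CPM in control and 8752 ± 214 CPM in knockout libraries (96.7%).

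Levels of different subunits can be compared only per length, and this was done as CPM per kb of the principal transcript in GENCODE 29. Where several coding transcripts carried the principal tag, the longest was taken, and without a tag the longest coding transcript. In control cells PSMB3 was the highest of the 14 core subunit genes, at 631 ± 25.1 CPM per kb, followed by PSMA7 at 483 ± 10.8 and PSMB4 at 393 ± 18.8 (SD, n = 3). In knockout cells PSMA7 led with 559 ± 21.1, PSMB4 had 327 ± 15.4 and PSMB3 had 308 CPM per kb. The ranges of PSMB3 (291 to 320) and PSMB4 (309 to 338) overlapped there, whereas in control libraries PSMB3 lay apart from both others. The core subunit whose RNA fell most was thus the most abundant of the core per length in control cells, and its knockout level was above the core median of 198 CPM per kb. PSMB2 was lowest in both groups (48.2 and 47.4 CPM per kb). PSMA4, PSMA5 and PSMB2 ended the order in both groups and had the longest of these transcripts (4411, 3729 and 2701 bases). Their places thus rest in part on the choice of length. With the union of all annotated exons as the length, PSMB3 and PSMA7 again exchanged the lead and PSMB2 stayed lowest, but ranks between changed; PSMB3 was then at 414 CPM per kb in control cells.

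**Figure D4:**
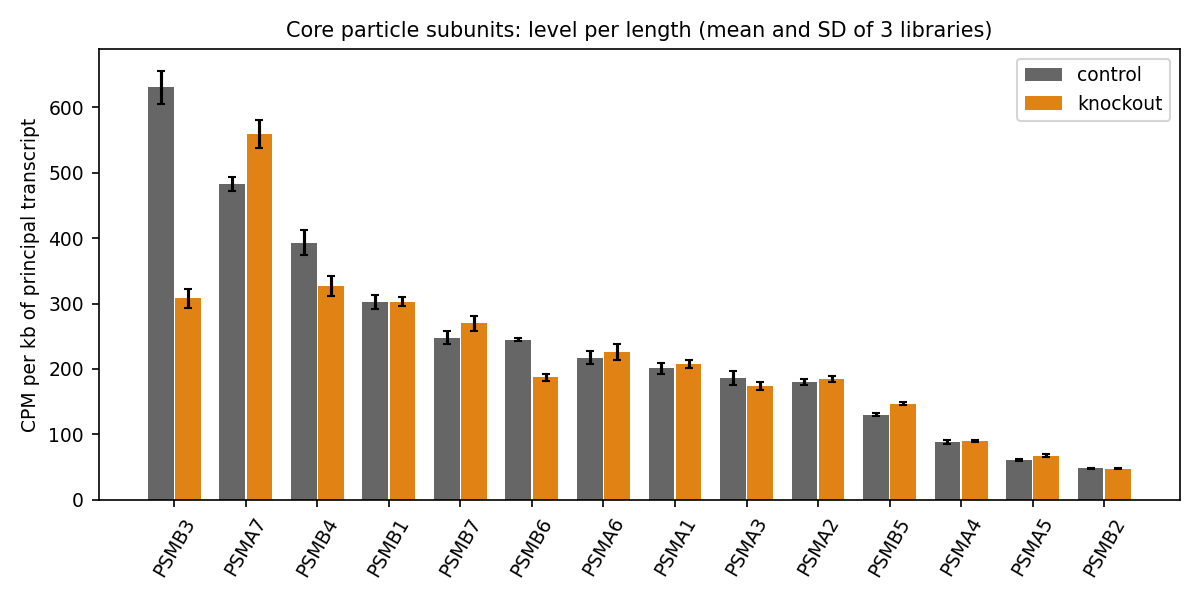
Level per length of the 14 core subunit genes in CPM per kb of principal transcript (y axis, from 0), ordered by the control level (x axis); bars are means and error bars the SD of 3 libraries. PSMB3 falls from the first place at 631 to 308 CPM per kb, while PSMA7 leads in the knockout at 559.

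Among genes that work with the proteasome, taken from lists of 42 genes of which 41 were tested, 12 rose (29.3%, against 24.6% of all tested genes), 6 fell (14.6%, against 25.8%) and 23 did not pass (median 0.06). UCHL1, a deubiquitinase, had 0 counts and was not detectable at this depth. NFE2L1, the transcription factor of proteasome genes, lies on chromosome 17 and fell from 227, 230 and 240 CPM to 214, 202 and 202 CPM (log2 -0.17, SE 0.05, adjusted p = 0.00277 in edgeR). In its list, which also holds the factors that process it, 1 rose, 2 fell and 5 did not pass of 8. SYVN1, a ubiquitin ligase of the endoplasmic reticulum, was the rise (log2 0.39), a call lost with DESeq2 and without control replicate 1, knockout replicate 2 or knockout replicate 3. POMP, the maturation factor of the core, had 132 ± 4.23 CPM in control and 135 ± 6.97 CPM in knockout libraries (SD, n = 3; log2 0.03).

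Further components and cofactors had 4 rises, 0 falls and 7 that did not pass of 11. ADRM1, a ubiquitin receptor of the base, went from 192, 189 and 189 CPM to 247, 258 and 223 CPM (log2 0.35, SE 0.05, adjusted p = 3.66e-07 in edgeR), and the proteasome-bound ligase UBE3C, the thioredoxin-like TXNL1 and the adaptor ECPAS rose by 0.27, 0.20 and 0.14 (ECPAS not without control replicate 3). USP14, a deubiquitinase bound to the proteasome, did not pass at 0.31 (adjusted p = 0.0508 in edgeR), although its groups did not overlap and it passed in 8 of the 13 planned other fits, with DESeq2 among them (adjusted p = 0.00559). Of 9 genes that deliver ubiquitinated substrates, RAD23B rose by 0.27, UBQLN4, on the long arm of chromosome 1, fell (log2 -0.51, adjusted p = 9.45e-07) and 7 did not pass. Of 6 genes for ubiquitin and its activating enzymes, 3 rose, 1 fell and 2 did not pass. The polyubiquitin gene UBB, on chromosome 17, fell from 763 ± 18.9 to 533 ± 25.6 CPM (log2 -0.52, adjusted p = 8.46e-12), while RPS27A, which encodes ubiquitin fused to a ribosomal protein, rose by 0.24 (SD, n = 3). Of 5 tested deubiquitinases 3 rose, USP8 most clearly (log2 0.21, adjusted p = 0.000561), and 0 fell.

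Outside the named regions the members moved little. Their median absolute log2 fold change was 0.07, where 6181 other genes elsewhere in the members' range of mean log2 CPM (4.53 to 9.02) had 0.18; of those genes 34.7% rose and 19.1% fell. Inside the regions the median absolute change was 0.39 for members and 0.28 for 903 other genes in that range. These are descriptions of the lists and carry no test.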

How the data were processed

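Per the labels' protocols, total RNA of HaCaT cells was made into stranded total-RNA libraries; a single table of unnormalized gene counts was deposited. The submitters' processing notes name GRCh38; no source used here gives the aligner, counter or strand setting. The members, lists, regions and tests were chosen with earlier results of these data known.

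Deposited counts were fitted with edgeR 4.0.16 in R 4.3.3: filterByExpr (minimum count 10, minimum total count 15), TMM scaling, a robust quasi-likelihood F test on 3 against 3 libraries without a block, Benjamini-Hochberg adjusted over 12293 genes, threshold 0.05. The test was tried on simulated data. CPM uses TMM-adjusted library sizes, standard errors were derived as the absolute log2 fold change (prior count 0.125) divided by the square root of F, and mean ± SD is over 3 libraries. Positions and lengths came from GENCODE 29. Neighbours were the nearest tested genes that reached a mean log2 CPM of 2, members left out. Named in full were up to 4 members per subcomplex by adjusted p, members with an absolute log2 fold change of at least 0.5 and, of each further list, up to 4 genes by adjusted p beside POMP, NFE2L1, PSMB8 and PSMB9; others were chosen after their values were seen. A few listed genes are counted in their lists but not reported here by name.

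No library was a copy of another: within groups, chi-square of the counts over its degrees of freedom was 2.65 to 4.49. Of the 44 members, 21 share exon bases with another annotated gene, 7 of them on the same strand, and not all are named above. GENCODE 29 names 30 pseudogenes after 10 of the PSM genes, 13 of them after PSMC1. Of these pseudogenes 0 were matched to a row, and reads from near-identical copies could have been split or lost. Other settings were DESeq2 1.42.0, limma-voom (limma 3.58.1), RLE and upper-quartile scaling, no filter, at least 1 CPM in 3 libraries, a replicate block and leaving out each library.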

Additional observations from a re-analysis of the deposited data

How the results depend on the processing

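The 8 members that fell kept their direction and their call in each of the 13 planned other fits, PSMD3 with log2 fold changes from -0.92 to -0.86 and PSMB10 from -0.77 to -0.64. Of the 16 that rose, 6 did so (PSMA7, PSMB5, PSMD6, PSME3, PSME4 and PSMG3), 10 lost the call in at least 1 setting, and 2 other members, PSMA3 and PSMC1, gained one. Of the called results 0 reversed. By rounded values, 6 members that did not pass (PSMB1, PSMD5, PSMD10, PSMD12, PSMD14 and PSME2) changed sign in at least 1 fit, with values from -0.05 to 0.03. PSMG2, at -0.0 in the main fit, is not among these and ran from -0.05 without control replicate 2 to 0.06 without knockout replicate 2. Leaving out 1 library gave 16 to 24 called members, 8 to 16 rises (18.2% to 36.4%, the fewest without control replicate 2) and 8 falls each time. Of all genes tested in these fits, 21.0% to 23.6% rose and 22.1% to 24.8% fell. SDR42E1 ranged from -1.22 to -1.12. With members of the long arms of chromosomes 1 and 16 and of chromosome 17 left out, 14 calls and 0 falls remain by construction. Upper-quartile scaling gave 13 rises (29.5%, against 21.7% of all genes tested in that fit) and 9 falls (28.3% of all genes). The member median was then 0.02 (main value 0.04).

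Deviations of libraries with the same number correlated at 0.0593, -0.0487 and 0.0306. Control 1, for example, was closest to knockout 2, so replicate numbers were not treated as pairing. A fit with the replicate block called 25 members, 17 higher (38.6%, against 25.7% of all tested genes) and 8 lower (against 26.6% of all tested genes). Chosen after seeing the data, 5 or 20 neighbours on each side gave a median absolute distance of 0.06 or 0.13 for the 11 members of the named regions (0.09 with 10). The ratio of the highest to the lowest core subunit per length in control cells went from 13.1 to 15.4 with the union of exons as length. The counts were the same, and only the lengths differed.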
